A study of Mus musculus with 5 samples.

Results

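Genes of basal and squamous keratinocytes were followed on 5 Affymetrix whole-genome mouse arrays. The set was listed by symbol. Krt5, Krt14, Krt15, Krt17, Trp63 and Dsg3 were grouped as basal, although Krt17 also appears in wounded epithelium. Krt6a, Krt13, Sprr1a and Sprr3 were grouped as genes of stressed or differentiating layers. Of these 10 genes, 9 were matched in the probe annotation, 5 basal and 4 of the differentiation or stress group, among 18193 named genes; Dsg3 was not analysed here. They have 19 probe sets of 34945 with a single gene symbol. The genes were chosen because they stood out on 1 array, labelled KA/KA 2, so their values on that array are a description and not a test. The KA/KA arrays (n = 3) came from FVB mice homozygous for a knock-in of a kinase-dead IKKα (K44A), which normally phosphorylates proteins of NF-κB signalling, and the WT arrays (n = 2) from wild-type littermates. All mice were 4 weeks old and the cells were not treated; the labels name no Cre or tissue-specific promoter. RNA was labelled as that of bone marrow cells enriched with magnetic beads for B220, a surface protein of developing B cells. The labels do not say whether an array holds RNA of a single mouse or of several.

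Stratified epithelia such as skin and the lining of the oesophagus renew themselves from a basal layer that sits on a basement membrane. Basal cells express the transcription factor p63 (Trp63) and the keratin pair Krt5 and Krt14, which assemble into filaments that end in desmosomes and hemidesmosomes. Cells that leave this layer switch keratins and build the cornified envelope, a protein shell to which small proline-rich (Sprr) proteins are cross-linked. Krt6a, Krt16 and Krt17 appear in wounded or rapidly growing epithelium. In the lung, p63 and Krt5 mark basal cells of the large airways, and the same genes serve as markers of squamous tumours. Loss of IKKα in mice has been linked to squamous tumours of the lung and to defects of epidermal differentiation.

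Signals are given as log2(signal + 16), on which a signal of 0 reads 4 and differences of dim probe sets are understated. For each gene the probe set with the highest mean over the arrays is given unless another is named. Values of different probe sets are not on a common scale, so levels are compared between arrays only. The arrays fell into 2 sets, as also seen in 24 bacterial poly-A control probe sets (median signal 7305 on WT 1 and 11897 on KA/KA 1, and 46.9 to 249 on the other 3). On KA/KA 1 and WT 1, the median of 11 B-lineage genes was 12.56 and 12.79, against 6.27 to 8.32 on KA/KA 2, KA/KA 3 and WT 2. The median of 14 lung epithelial genes was 5.95 and 5.88 on the first pair, against 13.49 to 14.05 on the other 3. The label of bone marrow B cells therefore went against the markers on KA/KA 2, KA/KA 3 and WT 2. Fewer cells of a type and less RNA per cell cannot be told apart in such samples. With a single array in each comparison below there is no replicate error unless one is stated.

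RefSeq promoter windows were matched for 5 of the 9 genes. Those of the 3 differentiation genes with a window are shown because these genes ranged widely in how far KA/KA 2 stood out (Sprr1a by 7.64, Krt13 by 2.64 and Sprr3 by 2.31 log2 units). Each run is the 250 bases before the annotated start, read 5′ to 3′ on the minus strand of GRCm38.p6. Capitals mark TGANTCA (N is any base), a looser form of TGA(C/G)TCA, the core sequence bound by AP-1 factors, and TATAAA, the TATA box.
Sprr1a (chr3:92485882-92486131): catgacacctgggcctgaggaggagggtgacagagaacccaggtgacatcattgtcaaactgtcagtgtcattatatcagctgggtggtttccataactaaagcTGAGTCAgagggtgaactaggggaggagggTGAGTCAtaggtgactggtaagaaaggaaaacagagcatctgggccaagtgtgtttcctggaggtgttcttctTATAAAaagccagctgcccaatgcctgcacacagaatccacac
Sprr3 (chr3:92458721-92458970): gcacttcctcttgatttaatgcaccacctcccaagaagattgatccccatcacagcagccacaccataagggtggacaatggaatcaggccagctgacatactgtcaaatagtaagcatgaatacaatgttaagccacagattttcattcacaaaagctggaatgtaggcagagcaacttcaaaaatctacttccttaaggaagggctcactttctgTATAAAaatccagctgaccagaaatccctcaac
Krt13 (chr11:100121567-100121816): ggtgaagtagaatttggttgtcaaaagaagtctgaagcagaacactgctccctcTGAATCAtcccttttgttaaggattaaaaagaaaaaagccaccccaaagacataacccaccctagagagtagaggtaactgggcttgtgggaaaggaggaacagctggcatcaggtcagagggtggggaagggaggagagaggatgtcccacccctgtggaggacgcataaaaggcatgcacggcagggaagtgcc
The Sprr1a window holds TGANTCA at 146 and 116 bases before the start and TATAAA at 43. The Sprr3 window, 27.2 kb away on chromosome 3, holds TATAAA at 33 bases and no TGANTCA. Krt13 on chromosome 11 has TGANTCA at 196 bases in the window shown, as TGAATCA, which is not the AP-1 core. A second annotated start has TGACTCA at 183 and 34 bases. The windows of Krt5 and Krt14 hold neither. Searched on both strands, TGANTCA lies in 6.75% of all 32851 windows of this length and TATAAA in 12.4%. The shares of TGANTCA count any base at N and so include matches outside the AP-1 core. TGANTCA was found for 36 of 154 genes with a window (23.4%) that were at least 2 log2 units higher on KA/KA 2 than on both KA/KA 3 and WT 2, and for 968 of 14452 measured genes (6.7%). TATAAA was found for 35 of the 154 (22.7%) and for 1513 of the 14452 (10.5%), so both motifs had a larger share there. Many of the 154 genes are copies within a gene family and share sequence, and a match to these letters is a description, not a binding site.

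All 9 genes were highest on KA/KA 2. On that array 8 of 9 read at least 2 log2 units (4-fold on this scale) above both KA/KA 3 and WT 2, and the same 8 above all 4 other arrays. Of all named genes, 1.19% met the first criterion (216 of 18193; 340 without WT 2 and 488 without KA/KA 3) and 0.934% the second. Of the set, 0 of the 9 were that far below both, as 0.676% of named genes were. Because the genes were chosen on this contrast, nothing is read from these counts. Their median difference from the mean of KA/KA 3 and WT 2 was 5.90 log2 units, against -0.03 over all named genes, whose 99th percentile was 2.61.

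**Figure D1:**
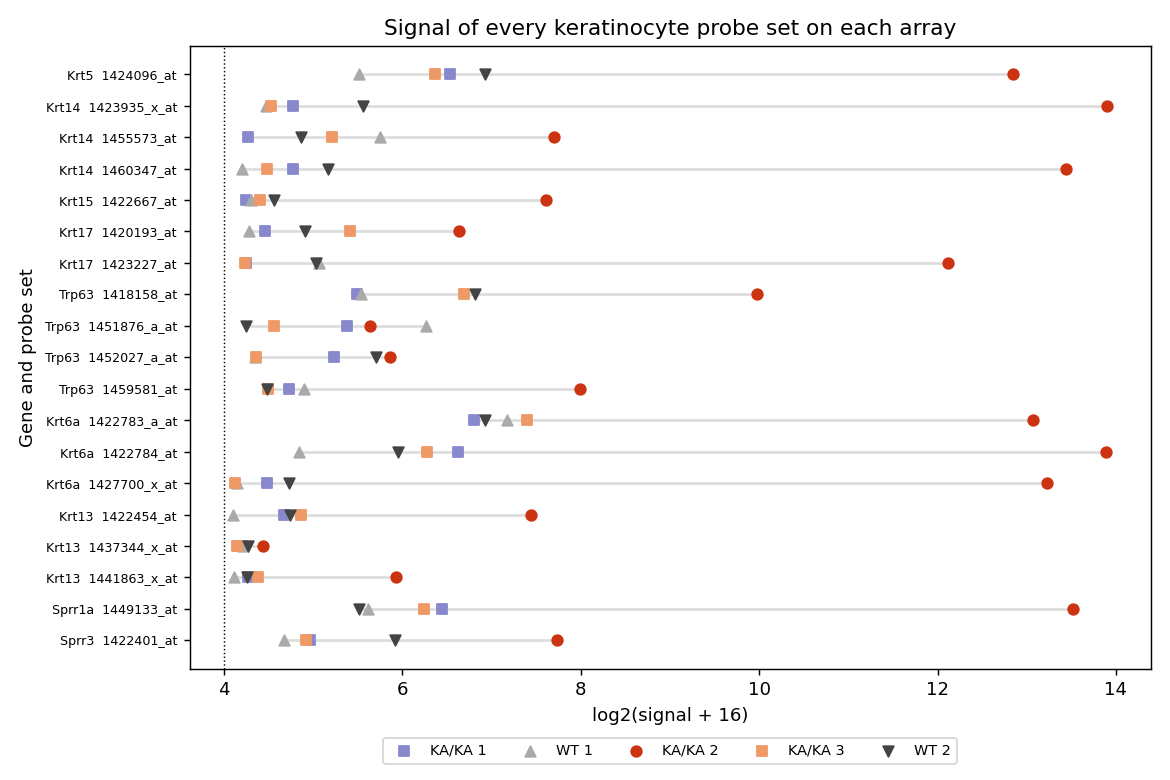
Signal of each of the 19 probe sets of the keratinocyte genes, as log2(signal + 16), on the 5 arrays (1 point per array; the grey line spans lowest to highest and the dotted line marks a signal of 0). KA/KA 2 is the highest point for 18 of 19 probe sets, and for 13 of 19 it lies at least 2 log2 units above both KA/KA 3 and WT 2.

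Among the basal genes, Krt14, the type I keratin of basal cells, showed the largest difference. It read 13.90 on KA/KA 2, 4.53 on KA/KA 3 and 5.56 on WT 2, and 4.77 and 4.48 on KA/KA 1 and WT 1. Its signal before the log was 15242 on KA/KA 2 and from 6.26 to 31.3 on the other arrays, all near background. Krt5, the type II partner of Krt14, read 12.85 on KA/KA 2, 6.36 on KA/KA 3, 6.93 on WT 2, 6.54 on KA/KA 1 and 5.51 on WT 1. KA/KA 2 stood 6.20 log2 units above the mean of KA/KA 3 and WT 2 and above every other array. Krt17, a keratin of hair follicles and wounded skin, read 12.12 on KA/KA 2, 4.24 on KA/KA 3, 5.04 on WT 2, 4.25 on KA/KA 1 and 5.07 on WT 1, a difference of 7.48.

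The regulator of the basal state was higher by less. Trp63, which encodes p63, read 9.98 on KA/KA 2, 6.69 on KA/KA 3, 6.81 on WT 2, 5.49 on KA/KA 1 and 5.54 on WT 1. On this probe set the arrays rich in lung genes lay above the marrow pair as well, and KA/KA 2 exceeded KA/KA 3 and WT 2 by 3.22. Other Trp63 probe sets did not repeat that order of lung and marrow arrays. On 1459581_at, KA/KA 3 and WT 2 read 4.49 and 4.49, below KA/KA 1 and WT 1 at 4.74 and 4.90. They were also below the pair on 1451876_a_at, and 1452027_a_at was mixed. Krt15, a keratin of quiescent basal and hair follicle stem cells, read 7.61 on KA/KA 2, 4.40 on KA/KA 3, 4.57 on WT 2, 4.25 on KA/KA 1 and 4.31 on WT 1. Its other 4 arrays lay close together near background, and the difference was 3.13.

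Of the differentiation and stress genes, by the brightest probe set of each, Sprr1a, a cornified envelope precursor induced by injury, differed most (7.64). It read 13.52 on KA/KA 2, 6.24 on KA/KA 3, 5.52 on WT 2, 6.45 on KA/KA 1 and 5.62 on WT 1. Krt6a, a type II keratin of wounded epithelium, read 13.07 on KA/KA 2, 7.40 on KA/KA 3, 6.93 on WT 2, 6.80 on KA/KA 1 and 7.18 on WT 1, a difference of 5.90. Its dimmer probe sets 1422784_at and 1427700_x_at differed by 7.77 and 8.80, more than Sprr1a. Among the other 4 arrays, both KA/KA arrays lay above both WT arrays for Sprr1a, by less than 1 log2 unit. For the brightest Krt6a probe set the genotypes interleaved. On 1422784_at both KA/KA arrays lay above both WT arrays (6.62 and 6.28 against 4.84 and 5.96).

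Krt13 and Sprr3, a keratin and an envelope protein typical of the inner squamous linings of mouth and oesophagus, showed the smallest differences. Krt13 read 7.44 on KA/KA 2, 4.87 on KA/KA 3, 4.74 on WT 2, 4.67 on KA/KA 1 and 4.11 on WT 1. Sprr3 read 7.73 on KA/KA 2, 4.92 on KA/KA 3, 5.92 on WT 2, 4.97 on KA/KA 1 and 4.67 on WT 1. It was the 1 gene of the set that did not stand 2 log2 units above both other arrays, exceeding WT 2 by 1.81.

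Probe sets of a gene did not always show the same difference. Of 19 probe sets, 13 were at least 2 log2 units above both KA/KA 3 and WT 2. The 2 large values of Krt14 came from probe sets 1423935_x_at and 1460347_at (13.44 on KA/KA 2), whereas 1455573_at read 7.71 on KA/KA 2 against 4.27 to 5.75 elsewhere. For Krt17, probe set 1420193_at read 6.64 on KA/KA 2 against 4.28 to 5.41 elsewhere. Of 4 Trp63 probe sets, 1418158_at and 1459581_at (7.99 on KA/KA 2 against 4.49 to 4.90 elsewhere) stood apart. The other Trp63 probe sets, 1451876_a_at (5.64 on KA/KA 2 and 6.26 on WT 1) and 1452027_a_at (5.87 on KA/KA 2 and 5.70 on WT 2), did not. All 3 Krt6a probe sets were above 13 on KA/KA 2, and of 3 Krt13 probe sets, 1437344_x_at stayed at 4.44. Keratins of a type are close in sequence, and probe sets ending in _x_at can read relatives such as Krt6b and Krt16, so their values may be shared between genes. Those ending in _a_at read several transcripts of the same gene.

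Basal and differentiation genes overlapped in the size of the difference. The 5 basal genes ranged from 3.13 to 8.85 with a median of 6.20, and the 4 differentiation or stress genes from 2.31 to 7.64 with a median of 4.27. Krt17 (7.48) was counted as basal but is also a keratin of wounded skin, and both medians depend on where it is placed. The order of the medians turned when all probe sets of a gene were averaged, to 4.48 for basal and 4.90 for the others. No difference between the groups can be read from these arrays.

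**Figure D2:**
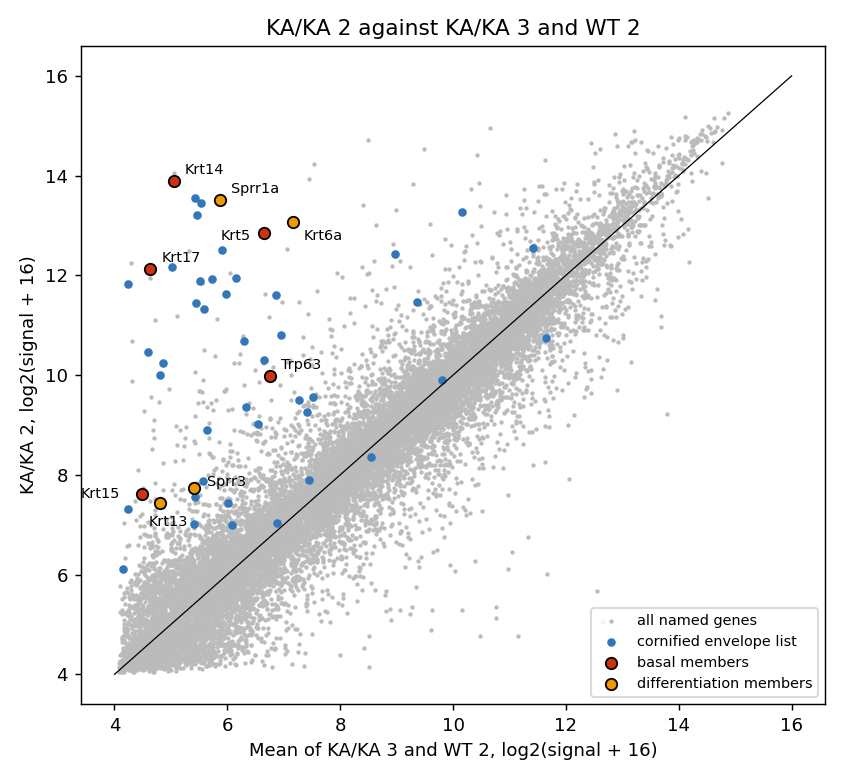
Each point is 1 named gene, with the mean of KA/KA 3 and WT 2 on the x axis and KA/KA 2 on the y axis, both as log2(signal + 16); the line marks equal values. Basal genes (red), differentiation genes (orange) and the cornified envelope list (blue) are marked, and Krt14 lies farthest from the line of the labelled genes, 8.85 log2 units above it.

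KA/KA 3 and WT 2, which shared the high lung epithelial signal with KA/KA 2, did not differ in a common direction. KA/KA 3 was below WT 2 for 6 genes and above it for 3, with a median difference of -0.17, and 8 of 9 lay within 1 log2 unit. The exception was Krt14, lower on KA/KA 3 by 1.03 at values near background. KA/KA 3 carried the same genotype label as KA/KA 2, and it was at least 2 log2 units above both KA/KA 2 and WT 2 for 28 of all named genes (0.154%). On the marrow pair, KA/KA 1 exceeded WT 1 for 5 genes and was below it for 4, with a median of 0.30 (0.05 over all named genes). By the brightest probe set of each gene, Krt5 alone differed by 1 log2 unit or more (1.02, upward), 1 of 9 genes, where 5.03% of named genes were that much higher and 3.65% that much lower on KA/KA 1. Dimmer probe sets differed by more, with 1422784_at of Krt6a at 1.78 and 1455573_at of Krt14 at -1.48. With 1 array against 1 these values had no test.

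The genotype comparison over all 5 arrays includes KA/KA 2, on which the genes were chosen, so their values in it are a description. Only 3 of the 9 (Krt5, Krt6a and Sprr1a) had a probe set above the filter on dim probe sets, which drops the dimmer part of all probe sets by their mean over 5 arrays, and they passed it through KA/KA 2. KA/KA minus WT was 3.16 ± 2.45 for Sprr1a, 2.36 ± 2.23 for Krt5 and 2.04 ± 2.05 for Krt6a (log2 units ± SE, n = 3 and 2). Without the array KA/KA 2 the differences were 0.77, 0.23 and 0.05. Over all 11392 genes tested limma called 0 higher and 0 lower (0% in each direction), with 25 at an unadjusted p under 0.05, and 0 with no filter, where 186 of 18193 had such a p. Each genotype group held arrays of both sets, so the difference between the sets entered the error. With the array set as a block, 311 genes had such a p and 0 were called. The 0 calls are therefore not read as absence of a genotype difference.

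Related genes were grouped by function in 9 lists, chosen with earlier results of these arrays known. Genes named below that did not meet the criterion were mostly chosen after their values were seen. Of 159 genes measured in these lists, 46 were at least 2 log2 units above both KA/KA 3 and WT 2 on KA/KA 2, against 1.19% of all named genes. No test applies to 1 array against 2.

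Other keratins of stratified epithelium divided sharply. Of 13, 3 stood above both arrays, 1 below and 9 neither, with a list median of 0.53. Krt6b, the close relative of Krt6a, read 14.04 on KA/KA 2 against 5.20 and 4.92 on KA/KA 3 and WT 2, a difference of 8.98. Krt16, the type I partner of Krt6a in wounded skin, read 12.25 against 4.37 and 4.20. Krt1, the first keratin of the suprabasal epidermis, read 10.24 against 6.53 and 5.72, while its partner Krt10 read 7.91 against 7.78 and 8.43. Krt4, the partner of Krt13 in the oesophagus, read 6.20 against 5.40 and 7.06. Krt79, a keratin of sebaceous and hair canal epithelium, was the gene below both, at 6.26 against 9.36 and 9.39.

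Cornified envelope and late differentiation genes gave the largest count, 26 of 41 above both arrays and 0 below, with a median of 3.27. The 6 of largest difference were Sprr2f (8.13), Sprr2d (7.91), Krtdap (7.76), Sprr1b (7.60), Sprr2h (7.15) and Crct1 (6.60). Sprr2f and Sprr2d, envelope proteins of a multigene family whose probe sets may read each other, read 13.55 and 13.45 on KA/KA 2 and 4.96 to 6.11 on KA/KA 3 and WT 2. Ivl, involucrin, an early envelope protein, read 9.37 against 6.76 and 5.90, and Tgm1, the enzyme that cross-links the envelope, 10.30 against 7.15 and 6.16. Other genes of the late epidermis spanned a wide range. Klk7, a protease of shedding corneocytes, differed by 6.20, Rptn, repetin, by 4.38 and Cdsn, corneodesmosin, by 3.27. Flg, filaggrin, read 7.55 against 5.64 and 5.20, and Lor, loricrin, the main envelope protein of epidermis, 7.90 against 7.13 and 7.78. Casp14, a protease of cornifying epidermis, read 8.36 against 8.43 and 8.67. Genes of this paragraph after the 6 of largest difference were chosen after their values were seen.

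**Figure D3:**
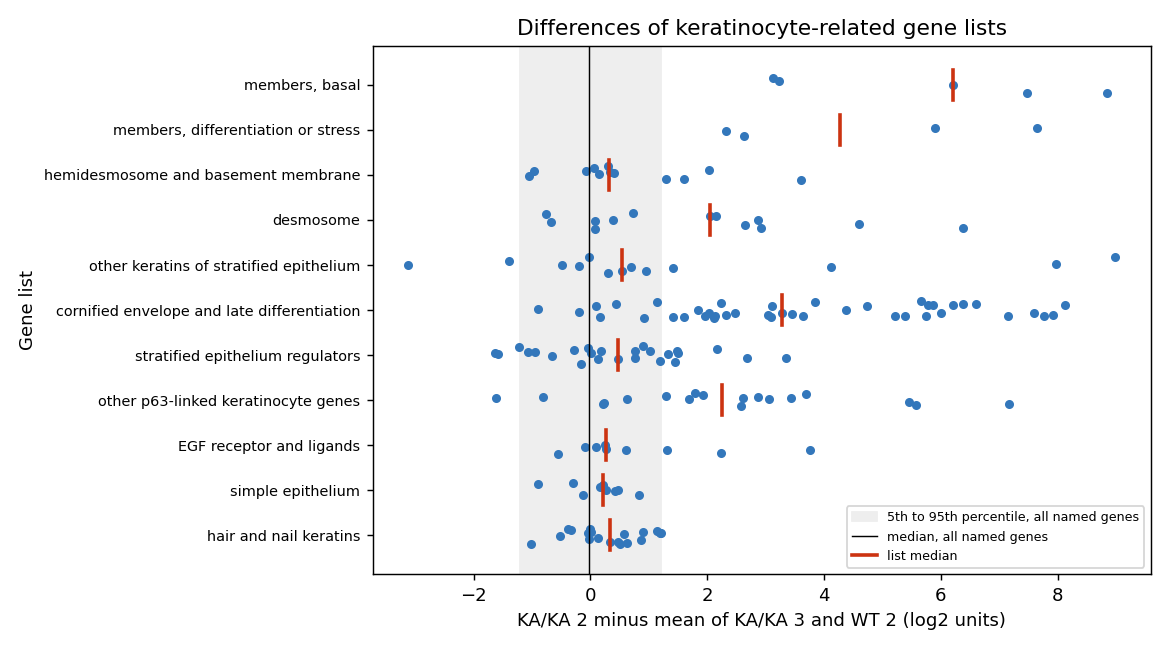
Difference of KA/KA 2 from the mean of KA/KA 3 and WT 2 (log2 units, x axis) for each gene (blue points) of the listed groups (y axis), with the list median in red and the 5th to 95th percentile of all named genes shaded. The cornified envelope list has a median of 3.27 and the desmosome list of 2.05, whereas simple epithelium and hair keratins have medians of 0.22 and 0.33.

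Adhesion genes were mixed within each complex. In the desmosome list 5 of 13 were above both arrays and 0 below (median 2.05). Pkp1, a plakophilin of stratified epithelium, read 11.10 on KA/KA 2, 4.55 on KA/KA 3 and 4.87 on WT 2, a difference of 6.38. The desmosomal cadherins Dsc2 (4.60), Dsc1 (2.92) and Dsg1b (2.86) and the p63 target Perp (2.64) followed, with near-identical Dsg1 copies that may share signal. Dsp, desmoplakin, which links keratin to every desmosome, differed by 2.05 without passing both arrays. Jup and Pkp2, found in desmosomes of many tissues, differed by -0.75 and 0.38. The other genes that did not meet the criterion were the cadherins Dsg1a (2.16), Dsc3 (0.09) and Dsg2 (0.08) and the plakophilins Pkp3 (0.73) and Pkp4 (-0.67). In the hemidesmosome and basement membrane list only Col17a1, a transmembrane collagen of hemidesmosomes, met the criterion (1 of 12, median 0.31). It read 10.25 on KA/KA 2 against 6.03 and 7.24. Lamb3, a laminin chain, differed by 2.04 and Itgb4, the hemidesmosome integrin, by 1.60 without passing both arrays. The count of this list was 3 without WT 2 and 0 without probe sets ending in _s_at, _x_at or _a_at. The Col17a1 values came from a probe set ending in _a_at, the kind that reads several transcripts of the same gene.

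Other genes linked to p63 in keratinocytes were above both arrays for 7 of 18 (median 2.25, 0 below), and for 12 of 18 without WT 2. The largest were Lgals7, a galectin of stratified epithelium, at 12.48 against 5.51 and 5.13, and Sfn, the cell cycle protein 14-3-3σ, at 9.88 against 4.24 and 4.37. Gjb2, connexin 26, read 12.52 against 6.38 and 7.73. Serpinb5 (3.69), Cldn4 (3.44) and Trim29 (3.06) were the next in size. Of the 11 that did not meet the criterion, Fgfr3 (-1.62) and Ngfr (-0.82) were lower on KA/KA 2. Fgfr2 (0.21) and Cdh1 (0.23) differed little, and the others ranged from 0.63 for Cldn1 to 2.61 for Fat2.

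Of 25 regulators of stratified epithelium, transcription factors together with Notch receptors and their ligands, 2 were above both arrays and 0 below, with a median of 0.46. With probe sets averaged or 64 added, 1 was above. Pitx1, a homeodomain factor, read 8.59 on KA/KA 2 against 4.93 and 5.54. Tfap2a, AP-2α, read 9.07 against 6.88 and 6.91. Sox2, a factor of airway and oesophageal basal cells that is often amplified in squamous lung cancer, read lower, 6.87 against 8.18 and 8.81. Among the EGF receptor and its ligands 2 of 9 were above both (median 0.27): Ereg, epiregulin, at 9.18 against 5.46 and 5.38, and Epgn, epigen, at 8.20 against 6.10 and 5.83. With 64 added, 1 was above. Egfr itself read 9.14 against 8.99 and 9.10.

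Medians of the simple epithelial list and of the hair and nail keratins lay near those of the hemidesmosome (0.31) and EGF receptor (0.27) lists. Of 9 simple epithelial genes 0 met the criterion (median 0.22). Muc1 and Epcam, surface proteins of glandular epithelium, read 12.04 and 11.96 on KA/KA 2 against 10.87 to 11.76 on KA/KA 3 and WT 2. Hair and nail keratins gave 0 of 19 (median 0.33). The highest of these on KA/KA 2 were Krt81, 8.26 against 8.05 and 8.21, and Krt32, 7.09 against 6.33 and 7.17.

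The position of the genes in the genome was set beside these values. Sprr1a and Sprr3 lie on chromosome 3 in the epidermal differentiation complex, Krt14, Krt15, Krt17 and Krt13 in the type I keratin cluster on chromosome 11, Krt5 and Krt6a in the type II cluster on chromosome 15, and Trp63 on chromosome 16. Within 500 kb of Sprr1a, 15 of 27 other measured genes (55.6%) were at least 2 log2 units above both arrays, with a median difference of 2.48. They belong to the Sprr and Lce families, apart from Ivl and Kprp. Within 500 kb of Krt14 it was 1 of 29, Krt16 (3.45%), and within 500 kb of Krt5 2 of 32, Krt6b and Krt1 (6.25%), with 2 others below. Near Trp63 0 of 2 met the criterion. Gene neighbours were taken from RefSeq for GRCm38.p6, and copies in a cluster are not independent of each other.

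**Figure D4:**
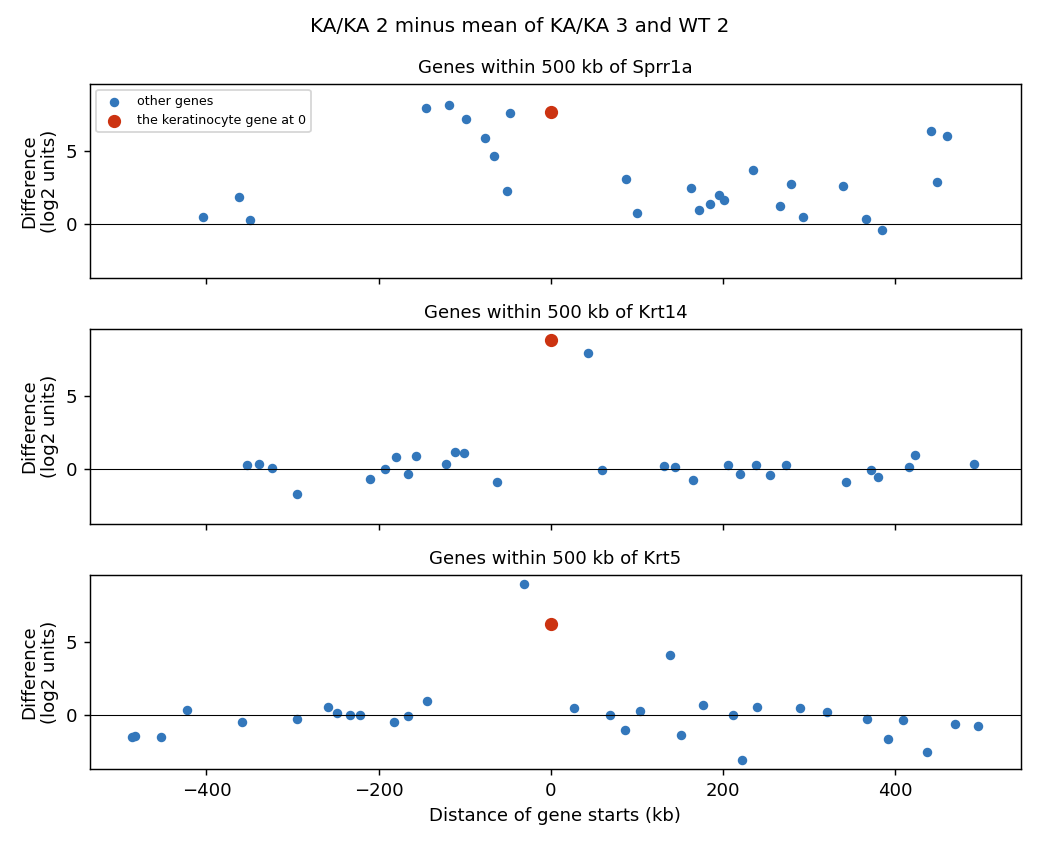
Difference of KA/KA 2 from the mean of KA/KA 3 and WT 2 (log2 units, y axis) for genes starting within 500 kb (x axis, distance in kb) of Sprr1a, Krt14 and Krt5, with the named keratinocyte gene in red at 0. Around Sprr1a 15 of 27 other genes are at least 2 log2 units above both arrays, against 1 of 29 around Krt14 and 2 of 32 around Krt5.

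The genes whose 5 values lay nearest to the median profile of the set were sought among all other named genes by Euclidean distance over the 5 arrays. This distance uses levels, which depend on the probe set, so it is a description of likeness on these arrays. The 15 nearest were Klk6 (distance 0.97), Lgals7 (1.00), Lce3c, Crct1, Sprr2h, Defb3, Csta1, Cst6, Pkp1, Calm4, Krt16, 2610528A11Rik, Krtdap, Sprr2f and Ccl24 (1.84). Of these, 10 were in the lists above. Klk6, a secreted kallikrein protease, read 11.85 on KA/KA 2 and 4.85 to 6.26 elsewhere, and Cst6, a cystatin that inhibits cathepsins in skin, 11.94 and 4.19 to 4.65. Defb3, an antimicrobial β-defensin, read 11.18 and 4.43 to 5.29, and Ccl24, a chemokine that attracts eosinophils, 10.50 and 4.51 to 5.60. The 15 genes with the largest excess over the highest of the 4 other arrays included 11 of the same genes. The largest was 8.84, for Krt6b. Arg1, arginase, a macrophage and epithelial enzyme, was among them, at 14.23 on KA/KA 2, 8.08 on KA/KA 3, 6.98 on WT 2, and 4.22 and 4.36 on KA/KA 1 and WT 1.

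Markers of other cells were read on the same arrays. The summed signal of 9 keratinocyte genes was 48805 on KA/KA 2 and 260.5 to 448.7 on the other 4. Lung epithelial genes summed to 208387 on KA/KA 2, 237063 on KA/KA 3 and 154790 on WT 2, so KA/KA 2 lay between those arrays. Among its airway genes, Foxj1 (6.14 against 7.03 and 7.35), Scgb3a2 (12.93 against 14.35 and 13.98) and Cyp2f2 (12.28 against 14.41 and 13.94) were lower on KA/KA 2 than on both. The club cell gene Scgb1a1 was not, at 15.16 against 15.31 and 14.29, nor did Scgb3a1 stand apart, at 13.60 against 13.74 and 13.60. Of 12 markers of the oesophageal and forestomach lining, which include 3 of the genes described here, 6 were above both arrays, and of 11 epidermal markers 5 were. Krt4, Sprr3, Krt78, Ecm1, Pax9 and Gsta4 of the first list did not meet the criterion. Neither did Krt2, Krt10, Krt77, Flg, Lor and Casp14 of the second. Thymic epithelium, which also expresses Krt5 and Krt14, gave 0 of 8, with its defining factor Foxn1 between 5.59 and 6.27 on all 5 arrays. The summed signal of that list was 31345 on KA/KA 2, 12663 on KA/KA 3 and 8570 on WT 2, nearly all of it from Ctsl, a lysosomal protease made by many cell types, at 14.90 against 13.52 and 12.88. Thymocyte markers gave 0 of 7, with Rag1 at 4.09 on KA/KA 2. Thyroid and parathyroid gave 0 of 5, cartilage 0 of 9 and skeletal muscle 0 of 9.

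Some markers also differed on KA/KA 2. Of 7 mesenchymal genes, Col1a1, a fibrillar collagen, was above both arrays (11.49 against 8.30 and 8.98), and the list summed to 56972 on KA/KA 2, 21863 on KA/KA 3 and 37522 on WT 2. The bright collagens Col3a1 (14.53 against 12.23 and 12.97) and Col1a2 (14.17 against 11.99 and 12.96) make up most of that sum, while Dcn, decorin (11.11 against 11.91 and 12.96), and Pdgfra (12.10 against 12.87 and 12.95) were lower on KA/KA 2. Heart muscle genes went the other way, with 5 of 7 below both. Myh6, a cardiac myosin heavy chain, read 5.68 on KA/KA 2, 11.66 on KA/KA 3 and 13.43 on WT 2, and the list summed to 1306, 10270 and 54994. In the salivary and airway gland list 2 of 12 were below both. Bpifa1, a secreted protein of nasal and upper airway lining, read 5.05 on KA/KA 2, 11.60 on KA/KA 3 and 13.73 on WT 2. The Y-linked gene Eif2s3y read 4.78 on KA/KA 2 and 10.41 to 11.37 on the other 4 arrays, and Xist, expressed from the inactive X, 13.93 on KA/KA 2, 12.48 on KA/KA 1 and 6.49 to 7.67 on the rest. These genes were chosen after their values were seen, and the labels used here give no sex. The part of these differences in the keratinocyte result was not tested. All of them rest on a single array. The median of the keratinocyte genes was 4.92 on KA/KA 3 and 4.97 on KA/KA 1, which carry the same genotype label. KA/KA 1 was an array of the marrow pair, without the lung epithelial signal. The part of the genotype was not tested.

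**Figure D5:**
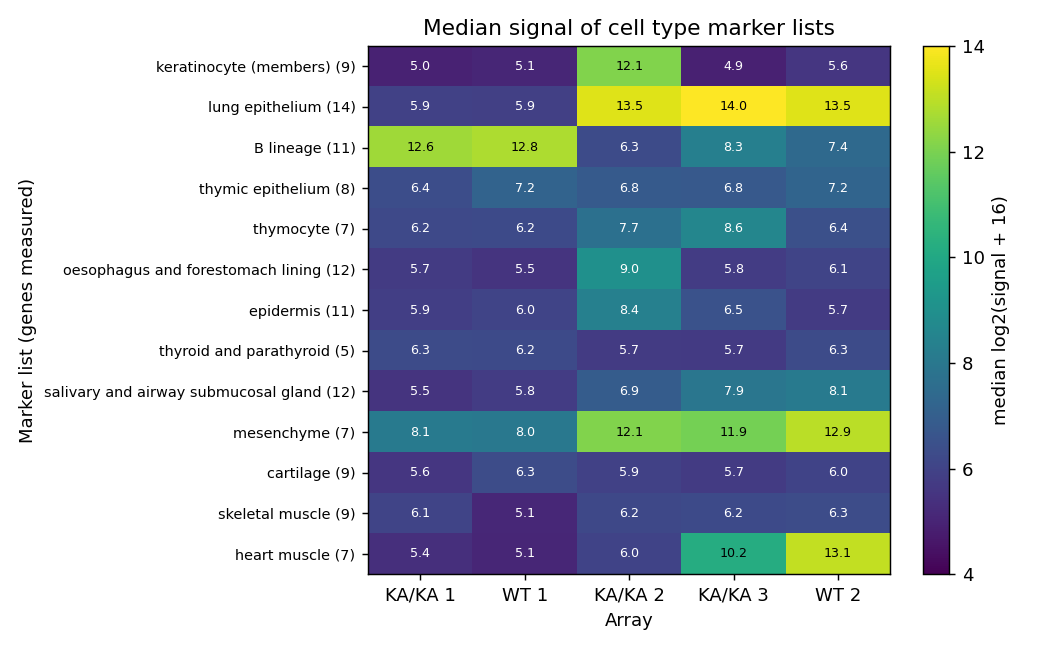
Median log2(signal + 16) of each cell type marker list (y axis, number of genes measured in brackets) on each array (x axis), with the value printed in each cell. The keratinocyte list is high on KA/KA 2 alone (12.1), lung epithelium on KA/KA 2, KA/KA 3 and WT 2, B-lineage genes on KA/KA 1 and WT 1, and heart muscle on KA/KA 3 and WT 2.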

How the data were processed

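The authors deposited intensities for 45101 probe sets on each of 5 arrays. Per the submitters' processing notes the tool was MAS5, with no version given. The series text speaks of a log2 transformation, but the values were linear, with maxima from 21977 to 40821 and a trimmed mean of 500 on every array (2% left out at each end). Aligner and genome build do not apply. The scale is log2(signal + 16), computed here without further normalisation. Gene symbols came from GEO's platform annotation (34945 probe sets with 1 symbol, 932 with several and 9160 with none, the last 2 kinds left unnamed), without 64 control probe sets. A gene's values are those of its brightest probe set on average.

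The genotype comparison used limma 3.58.1 in R 4.3.3 (lmFit, eBayes with trend, Benjamini-Hochberg, threshold 0.05) on probe sets whose mean log2 signal reached the median over all probe sets. It was also run on simulated data that left out the split into 2 array sets. That run therefore does not show how the comparison behaves on these arrays. Replicates are arrays, and their number limits the precision. Comparisons of 1 array with 1 or 2 are values with no test, counted at 2 log2 units (KA/KA 2) or 1 (the marrow pair). Named genes were all members, at most 6 per list past the threshold, otherwise the 2 of highest level, 15 nearest and 15 of largest excess, and the 3 brightest of each marker list; the marker genes printed were instead chosen for defining a cell type or after their values were seen. Members and lists were chosen with earlier results of these data known. Alternatives were other added constants, quantile and median scaling, a floor, other probe set rules and filters, blocks, and leaving out arrays. Sequences came from RefSeq.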

Additional observations from a re-analysis of the deposited data

How the results depend on the processing

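Every difference of a member between KA/KA 2 and the mean of KA/KA 3 and WT 2 stayed positive under each alternative listed for it (81 values, 1.49 to 9.88 log2 units). The members above both arrays numbered 6 with 64 added in place of 16, 7 with probe sets averaged, 9 with 1 added and 8 or 9 with KA/KA 3 or WT 2 left out; with thresholds of 1 and 3 log2 units, chosen after seeing the data, they were 9 and 7. The count of all named genes above both arrays was 356 with 1 added, 340 to 488 with WT 2 or KA/KA 3 left out, and 762 and 99 at thresholds of 1 and 3.

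The basal median was 4.48 with probe sets averaged and 5.64 with 64 added. The differentiation median was 4.90 with probe sets averaged, 4.84 and 3.52 with 1 and 64 added, and 5.14 without probe sets ending in _s_at, _x_at or _a_at (called shared below). Basal minus differentiation reversed to -0.42 with probe sets averaged, was 1.06 without shared probe sets, and ranged from 1.50 to 2.24 with KA/KA 3 or WT 2 left out. On the marrow pair, members higher by 1 log2 unit numbered 3, 0 and 2 with 1 added, 64 added and shared probe sets left out, and members lower numbered 1 with 1 added or quantile normalisation. Genes of the related lists above both arrays numbered 42 to 57, against 46, and 34 and 69 at thresholds of 3 and 1. The cause of these shifts was not tested.

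In the limma comparison of genotypes, 3 to 9 members were tested, except with the upper-quarter filter, where 0 remained. The replicate block, the number in the labels as a block, called 1 gene higher, not a member. Numbers 1 and 2 occur in both groups and 3 in KA/KA alone, so there are fewer than 3 pairs. Deviations from the group means correlated at 0.877 for number 1 and 0.653 for number 2, but those of the 2 WT arrays mirror each other, and the samples are taken to share only a number. The array set as a block called 0. Signals near background limit all values on the 4 arrays other than KA/KA 2.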
